A study of Mus musculus with 72 samples.

Results

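The Plagl1 region is the imprinted methylation mark at the start of Plagl1 (Zac1), read by bisulfite amplicon sequencing (IMPLICON) in mouse brain and lung. It comprises the 13 CpGs that the deposited table assigns to Plagl1, of 224 CpGs in all, and each CpG has a methylation percentage for either parental allele. The samples were cerebellum (CB), hippocampus (HCP), prefrontal cortex (PFC), hypothalamus (HY), nucleus accumbens (NAc) and lung (LUNG) of 8 female F1 mice. The mice came from reciprocal crosses of BL6 and CAST. Of the 72 labelled samples, 48 libraries were used here, 1 per mouse and tissue. The 4 old mice were 101 weeks of age with a BL6 mother and a CAST father (mice 1 and 2), or 103 weeks with a CAST mother and a BL6 father (mice 3 and 4). The 4 young mice were 8 weeks with a CAST mother (mice 5 and 6), or 9 weeks with a BL6 mother (mice 7 and 8). The labels name no treatment and no engineered allele, each tissue is a mixture of cell types, and lung served as the control organ. The study asked whether imprinting stays stable as the brain ages.

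Plagl1 encodes a zinc finger transcription factor that restrains cell division and takes part in a network of imprinted growth genes. It is expressed from the paternal allele. At such a locus a differentially methylated region acquires methylation in the oocyte, keeps it on the maternal allele through development, and stays unmethylated on the paternal allele, where it serves as the promoter of the imprinted transcripts. KRAB zinc finger proteins, among them ZFP57, bind methylated copies of the motif TGCCGC and protect such marks in the early embryo. Gain of methylation on the paternal copy silences the gene, and loss on the maternal copy doubles the active alleles, which in humans is linked to transient neonatal diabetes.

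On build GRCm38 the CpGs lie on chromosome 10 between 13091188 and 13091361 and are numbered 1 to 13 here in the order of their coordinates. The RefSeq table of the same build places them inside both Plagl1 (gene 22634, 13090832 to 13131694) and the long noncoding RNA gene Hymai (gene 338438, 13090845 to 13095900), 356 to 529 bases downstream of the Plagl1 start. Exons and introns were not used here. The sequence next to the amplicon is shown for its CpG density. It is the RefSeq promoter window of Plagl1 (GRCm38, plus strand, chr10:13090582-13090881), which ends 307 bases before CpG 1, with each CG in capitals.
Plagl1 promoter window: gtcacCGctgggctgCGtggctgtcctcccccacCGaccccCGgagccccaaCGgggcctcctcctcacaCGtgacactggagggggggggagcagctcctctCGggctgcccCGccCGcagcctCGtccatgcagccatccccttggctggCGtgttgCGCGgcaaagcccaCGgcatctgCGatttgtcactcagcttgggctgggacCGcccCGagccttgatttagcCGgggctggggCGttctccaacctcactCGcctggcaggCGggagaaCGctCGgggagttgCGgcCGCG
The 300 bases hold 26 CG dinucleotides, against a median of 7 over the 32851 RefSeq promoter windows of the same length, of which 16.9% hold as many or more. The motif TGCCGC was searched on both strands. It occurs 0 times on the strand shown and 1 time on the other, seen here as GCGGCA from position 13090742, and 11.6% of all promoter windows hold it on either strand. The window holds none of the measured CpGs.

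Over the series, the 48 libraries used here held 376 to 461238 calls, with a median of 62773. At Plagl1, 12 of the 13 CpGs reached the minimum of 50 calls on an allele. CpG 13 had at most 23 calls in a library and was left out. Young mouse 8 did not reach the minimum at Plagl1 in any tissue, and neither did the hippocampus library of mouse 3 or the prefrontal cortex library of mouse 7, which left 40 libraries of 7 mice with both alleles. Where they reached it, the calls of the 12 CpGs within a library were nearly equal, as amplicon reads span several of them, so CpGs of a library are not independent. Intervals from calls reflect counting error alone, and p-values measure the spread between these mice. In the table the genomes are numbered, and genome 1 was taken as BL6. A swap would exchange maternal and paternal throughout.

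One library stood apart from the other 39. In the prefrontal cortex of young mouse 5 the paternal allele had a mean of 62.8% and the maternal allele 99.6%. In the other 39 libraries the paternal level ran from 1.04 to 7.61% with a median of 2.91%, and the maternal level from 84.2 to 96.5% with a median of 91.0%. Both alleles of that library thus lay above every other library. The paternal value was the same along the amplicon, at 62.6 to 63.0% at each of the 12 CpGs, or 531 to 534 methylated of 847 or 848 calls. The SD over CpGs was 0.0993 points on the paternal and 0.137 points on the maternal allele. In the other libraries this SD ran from 0.216 to 2.58 points on the paternal and from 1.14 to 4.31 points on the maternal allele, so the library was also the most even of the 40 on each allele. The depth of this library at Plagl1 was high, with 1057 maternal calls per CpG. Its maternal level lay near the upper limit of the scale, so the maternal SDs are not compared on an equal footing. The other 5 tissues of mouse 5 had paternal levels between 1.59% (HCP) and 5.66% (HY), inside the range of the 39 libraries, although 5.66% was the highest value in hypothalamus. At other imprinted regions the same library had 2.65% on the maternal allele of Gnas, where 46 other libraries had 64.3 to 92.1%. At maternal H13 it had 46.1%, below the 55.7 to 94.6% of 46 others, and at maternal Commd1 98.5%, above the 72.7 to 97.4% of 41 others. On the paternal allele H13 had 29.4%, above the 3.56 to 23.8% of 46 others, and Gnas had 9.13%, inside the range of 6.01 to 20.5%. Results that rest on this library are given with and without it, or the text says that no test without it was made.

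**Figure D1:**
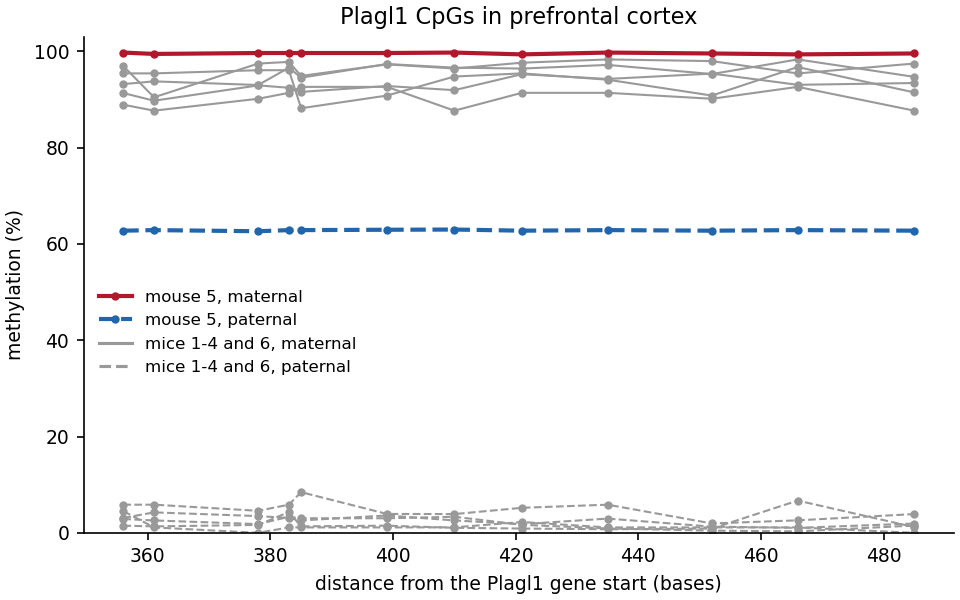
Methylation (%) of 12 Plagl1 CpGs in the 6 prefrontal cortex libraries with values, against the distance from the Plagl1 gene start in bases. Solid lines are maternal and dashed lines paternal alleles, with mouse 5 in colour, whose paternal allele lies at 62.6 to 63.0% while those of the other libraries stay near the bottom of the axis.

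The maternal allele was methylated and the paternal allele nearly free of methylation in each tissue. The maternal level, the mean over the 12 CpGs, ran from 84.2 to 95.1% in cerebellum with a median of 91.0%, from 88.1 to 93.1% in hippocampus with a median of 91.9%, and from 90.3 to 99.6% in prefrontal cortex with a median of 94.7%. In lung it ran from 87.6 to 90.8% (median 89.6%), in nucleus accumbens from 87.0 to 93.1% (median 91.5%) and in hypothalamus from 85.0 to 92.8% (median 89.2%). Lung had the lowest maximum and the smallest SD between mice, 1.31 points, while cerebellum had the largest, 3.61 points. The paternal level ran from 1.04 to 7.61% in cerebellum (median 2.89%), from 1.17 to 3.34% in hippocampus (2.21%), from 1.31 to 62.8% in prefrontal cortex (2.35%), from 1.14 to 5.05% in lung (3.36%), from 2.00 to 3.96% in nucleus accumbens (2.69%) and from 1.47 to 5.66% in hypothalamus (3.27%). Maternal and paternal levels did not overlap in any tissue. The mean difference between the alleles was 85.9 points in lung, 86.1 in hypothalamus, 86.8 in cerebellum and 88.2 in nucleus accumbens (7 of 7 mice each, exact two-sided sign-flip test, p adjusted over 6 tissues = 0.0234). It was 89.2 points in hippocampus and 82.2 in prefrontal cortex (6 of 6 mice each, exact sign-flip test, adjusted p = 0.0313). These are the smallest p that 7 and 6 mice allow. Without the library of mouse 5 the difference in prefrontal cortex was 91.2 points (5 of 5 mice, exact sign-flip p adjusted to 0.0625, again the smallest possible). In the order of the maternal medians, prefrontal cortex stood first and hypothalamus last, and the ranges of all tissues overlapped.

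**Figure D2:**
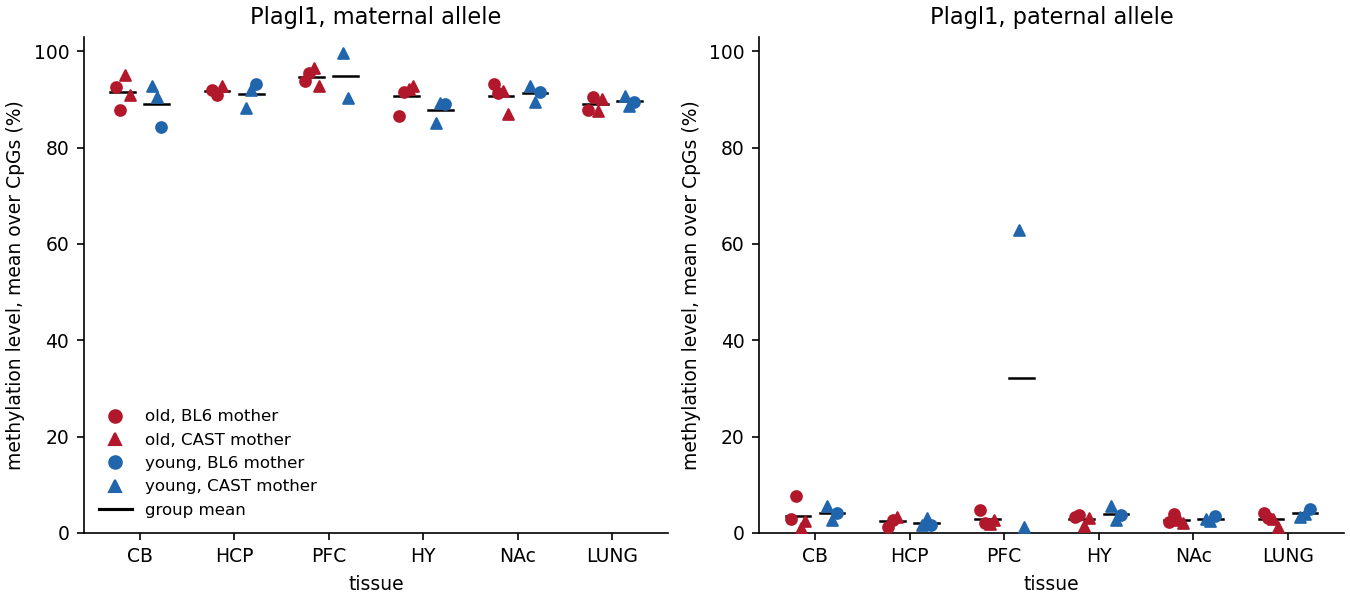
Mean methylation (%) over 12 Plagl1 CpGs per library on the maternal (left) and paternal (right) allele, by tissue. Points are mice, coloured by age and shaped by the strain of the mother, and bars are group means; 39 of 40 paternal values lie at or below 7.61%, and the bar of young prefrontal cortex averages 2 mice, 1 of them mouse 5 at 62.8%.

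The spread between mice was set beside the binomial error of the calls at a single CpG, given the level and depth of each library. A level is the mean over the CpGs of the region, so its own error would be smaller if calls at different CpGs were independent. An SD below the single-CpG error thus does not show that the mice varied less than counting error. The comparison gives no share of the spread to either source. On the maternal allele the SD between mice was below the single-CpG binomial error in hippocampus (1.81 against 1.95 points), lung (1.31 against 2.41) and nucleus accumbens (2.15 against 2.71). It was above it in cerebellum (3.61 against 2.35), hypothalamus (2.95 against 2.09) and prefrontal cortex (3.20 against 1.68, or 2.41 against 1.84 without the library of mouse 5). On the paternal allele the SD was 0.690 to 2.22 points outside prefrontal cortex, with binomial errors of 1.01 to 1.60 points.

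The 12 CpGs were not equally methylated, and the shape recurred over mice. Each CpG was compared with the mean of the 12 CpGs of the same library and allele, and averaged per mouse. CpG 2 was the lowest on the maternal allele, at 3.04 ± 0.778 points below the mean (SD, n = 7 mice, deviation -3.04, below in 7 of 7 mice and above in 4 of 40 libraries). CpG 11 was the highest, at 2.64 ± 0.495 points above (7 of 7 mice, 36 of 40 libraries), followed by CpG 10 at 2.26 ± 1.10 points (7 of 7 mice). In level, without the library of mouse 5, CpG 2 had 87.6% ± 1.23, CpG 10 93.1% ± 1.38 and CpG 11 93.5% ± 1.15 (n = 7). The maternal deviations of CpG 1 (-0.957), CpG 5 (-0.732) and CpG 9 (0.885) also passed the test. At a minimum of 20 calls, where 8 mice entered, CpG 5 no longer passed (-0.517, exact sign-flip adjusted p = 0.0721). From CpG 2 to CpG 11 the maternal deviation thus moved from the lowest to the highest value, and CpG 12 stood at -1.33 points, below the mean in 6 of 7 mice.

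On the paternal allele the deviations were smaller. CpG 4 stood highest, at 0.708 ± 0.412 points above the mean, and CpG 1 was 0.567 ± 0.254 points above it (7 of 7 mice each). CpG 10 stood lowest, with a deviation of -0.813 ± 0.218 points (0 of 7 mice above, 2 of 40 libraries). In level, without the library of mouse 5, CpG 4 had 3.78% ± 0.862 and CpG 10 2.23% ± 0.738. In all, 9 of the 24 CpG-alleles (a CpG on 1 parental allele) passed, 6 maternal and 3 paternal, each with an exact two-sided sign-flip p of 0.0156, the smallest that 7 mice allow (adjusted p = 0.0417). The same number passed without the library of mouse 5. CpG 1 was below the mean on the maternal and above it on the paternal allele, and CpG 10 the reverse. The difference between the alleles was narrowest at CpG 2 (84.3 ± 1.74 points) and widest at CpG 11 (91.1 ± 1.71 points) and CpG 10 (90.9 ± 1.80 points).

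**Figure D3:**
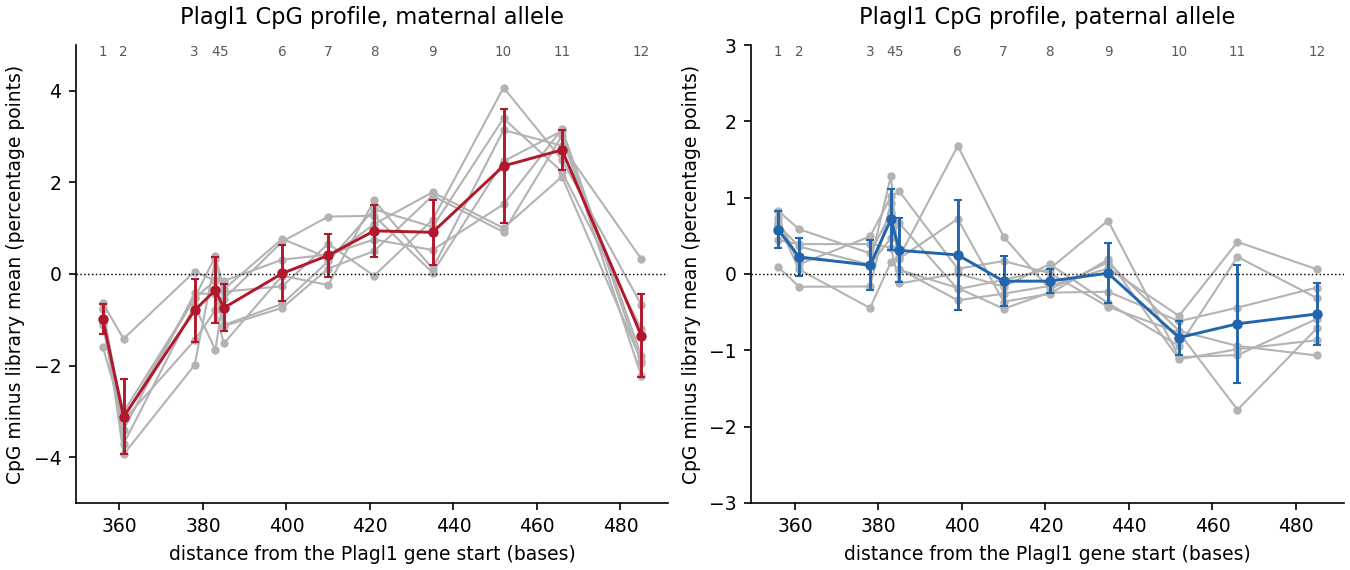
Deviation of each Plagl1 CpG from the mean of its library (percentage points) against the distance from the gene start in bases, on the maternal (left) and paternal (right) allele, without the prefrontal cortex library of mouse 5. Grey lines are the 7 mice and coloured points their mean with SD, and small numbers name the CpGs; maternal CpG 2 lies below 0 and CpG 11 above 0 in each mouse. The vertical scales differ.

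The shape was seen in both crosses and at both ages, again without the library of mouse 5. Maternal CpG 2 deviated by -2.59 points in mice with a BL6 mother (n = 3) and by -3.52 points in those with a CAST mother (n = 4), so it was low whichever strain gave the allele. It deviated by -2.98 points in old (n = 4) and -3.31 points in young mice (n = 3). Maternal CpG 11 deviated by 2.65 and 2.75 points in the crosses and by 2.63 and 2.82 points in old and young mice. These pairs of groups overlapped, and the differences were not tested. By tissue, maternal CpG 2 was the lowest CpG in all but lung, with deviations from -4.50 points in hippocampus to -2.40 points in prefrontal cortex. In lung it deviated by -2.88 points and CpG 12 by -3.08 points. Maternal CpG 10 deviated by 3.62 points in lung and 0.106 points in prefrontal cortex.

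No age effect was detected at Plagl1. limma, fitted per tissue over all CpG-alleles of the table, 200 or more, with the cross as covariate, called 0 of the 24 Plagl1 CpG-alleles in each of the 6 tissues, and edgeR on methylated and unmethylated calls called 0 as well. The share that limma called over all CpG-alleles was also 0% in each tissue, and edgeR called 1 CpG-allele of the table, outside Plagl1, in lung. At an unadjusted p below 0.05 limma had 3 Plagl1 CpG-alleles in cerebellum, 1 in hypothalamus, 1 in lung and 0 in the other tissues. Over the table the share with such a p was 7.5% in cerebellum, 0.976% in hypothalamus and 12.2% in lung. Shares over the table, here and below, include the Plagl1 CpG-alleles. In hypothalamus that share is 2 CpG-alleles, 1 of them in Plagl1. Counts of 0 to 3 among 24 CpG-alleles that are not independent do not rank the region against the table. In cerebellum the 3 were maternal CpGs 8, 9 and 11, higher in old mice by 4.47, 6.34 and 4.62 points (limma adjusted p = 0.429 each). In lung it was maternal CpG 12, where old mice differed by -6.39 points (limma adjusted p = 0.346, with a 95% interval of -11.4 to -1.36). In hypothalamus all 12 maternal CpGs had a higher estimate in old mice, of 0.323 to 5.64 points, of which CpG 5 (5.64 points, limma adjusted p = 0.747) had an unadjusted p below 0.05.

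By level, the maternal allele of hypothalamus had 86.4, 91.6, 92.1 and 92.8% in the 4 old mice and 85.0, 89.2 and 89.0% in the 3 young mice. The groups overlapped through old mouse 1, and the difference was 2.99 points (exact two-sided permutation p = 0.229, adjusted over 12 tests 0.9). It was 1.62 points without young mouse 5 and 4.43 points without old mouse 1. In cerebellum the old mice had 92.5, 87.9, 95.1 and 91.0% and the young mice 92.8, 90.4 and 84.2%, a difference of 2.50 points (exact permutation adjusted p = 0.9). That value rests on the library of young mouse 7, without which it was 0.0150 points, and it also moved to 1.34 points without mouse 3, 3.75 without mouse 2 and 4.35 without mouse 5. In lung, where old mice had 87.7, 90.6, 87.6 and 90.1% and young mice 90.8, 88.7 and 89.6%, the difference was -0.704 points (exact permutation adjusted p = 0.9). Over the 12 tests the exact permutation adjusted p was 0.9 throughout. With 4 against 3 mice the smallest p is 0.0286, and with 12 tests a single difference could not pass, so a change of a few points cannot be told from none here.

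The largest age difference was that of paternal Plagl1 in prefrontal cortex. The 4 old mice had 4.82, 2.07, 1.92 and 2.64% and young mice 5 and 6 had 62.8 and 1.31%. The difference of -29.2 points comes from mouse 5 alone, and mouse 6 lay below all old mice (exact permutation p = 0.333, adjusted 0.9). The largest differences at single CpGs were those of paternal CpG 1 (-31.3 points) and CpG 8 (-31.1 points) in this tissue (limma adjusted p = 0.631 each). A further limma fit over all tissues blocked on the mouse and pooled the variance of the tissues. In it all 12 paternal CpGs in prefrontal cortex passed, at -31.2 to -28.4 points (limma adjusted p = 0.00946 each). For this tissue the fit called 15 of its 200 CpG-alleles (7.5%), and these 12 are among the 15. Without the library of mouse 5, 1 young mouse was left in this tissue and no test was made. The age difference in prefrontal cortex minus that in lung was -28.4 points on the paternal allele (exact permutation p = 0.333, adjusted 0.8), and no such difference between a brain area and lung passed (lowest adjusted p = 0.8 of 10). Over 10 tests a single one could not pass with these numbers of mice.

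A mean per mouse over its tissues was added after the levels had been seen, with each tissue first centred on a common mean because some mice lack a tissue. Without the prefrontal cortex library of mouse 5, this maternal level was 90.9, 91.3, 92.7 and 91.1% in the old mice and 90.5, 90.0 and 90.1% in the young mice. The groups did not overlap, and the difference was 1.31 points, 91.5% ± 0.820 against 90.2% ± 0.265 (exact permutation p = 0.0571, adjusted over 4 tests 0.229). It did not pass, and with 4 against 3 mice and 4 tests a single difference could not pass at any size. With all libraries it was 0.900 points (exact permutation adjusted p = 0.514). The paternal level was 2.80% ± 0.854 in old and 3.30% ± 0.554 in young mice without that library (exact permutation adjusted p = 0.610). With it the young mean was 7.16% and the difference -4.45 points (exact permutation p = 0.0857, adjusted 0.343).

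The cross swaps which strain gives each allele, and no difference by cross was detected at Plagl1. limma called 0 of 24 CpG-alleles in each tissue, as did edgeR, and limma called 0% of the 214 to 223 CpG-alleles of the table. Over the whole table edgeR called 3 CpG-alleles in hippocampus, none of them in Plagl1. At an unadjusted p below 0.05 limma had 2 Plagl1 CpG-alleles in cerebellum, where 13.8% of the table had such a p, 1 in lung (8.52%) and 0 elsewhere. These counts are too small to rank Plagl1 against the table. In cerebellum maternal CpG 1 was lower with a BL6 mother, by -8.15 points (95% interval -14.5 to -1.82, limma adjusted p = 0.304), and CpG 4 was the next in size at -6.07 points (limma adjusted p = 0.327). The maternal level there was 92.5, 87.9 and 84.2% in the 3 mice with a BL6 mother and 95.1, 91.0, 92.8 and 90.4% in the 4 with a CAST mother. The difference was -4.14 points with overlapping groups (exact permutation p = 0.143, adjusted over 12 tests 0.72). As for age, a single difference could not pass over 12 tests. The value moved when 1 mouse was left out. The cerebellum difference was -2.13 points without mouse 7 and -6.32 points without mouse 1. In lung both crosses had a mean maternal level of 89.3% (SD 1.46 and 1.42, n = 3 and 4). The value for paternal prefrontal cortex, -13.7 points, turned to 1.49 points without the library of mouse 5 (exact permutation adjusted p of 1 and 0.6).

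Among the brain areas, prefrontal cortex had a higher maternal level than lung in each mouse, but the difference did not pass adjustment. Mice 1 to 6 had 93.8, 95.6, 96.5, 92.8, 99.6 and 90.3% in prefrontal cortex and 87.7, 90.6, 87.6, 90.1, 90.8 and 88.7% in lung. The prefrontal cortex value was above lung by 6.05, 4.98, 8.91, 2.76, 8.80 and 1.61 points, with mouse 6 the closest. The mean difference was 5.52 points (6 of 6 mice, exact sign-flip p = 0.0313, the smallest possible, adjusted over 10 tests 0.313) and 4.86 points without the library of mouse 5 (adjusted exact p = 0.469). Over 10 tests a single difference could not pass. The limma fit had age and cross as terms and did not pair the libraries of a mouse. In it all 12 maternal CpGs were estimated higher in prefrontal cortex, by 1.58 to 8.41 points with a median of 5.85, against a median of -0.0312 over all 223 CpG-alleles tested. Of these, 11 had an unadjusted p below 0.05, as did 11.2% of the table (25 CpG-alleles), and 0 passed adjustment, with the lowest adjusted p of 0.111 at CpG 6 (7.32 points). limma called 0% of the CpG-alleles in this comparison, and edgeR called 0 Plagl1 CpG-alleles with 7 at an unadjusted p below 0.05.

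Without the library of mouse 5, CpG 3 (5.65 ± 1.53 points, SE), CpG 6 (6.29 ± 1.64) and CpG 8 (4.32 ± 1.16) of the maternal allele passed (limma adjusted p of 0.0419, 0.0363 and 0.0419), while 9.87% of all 223 CpG-alleles were called. At a minimum of 100 calls, which took out mouse 6 at Plagl1 in prefrontal cortex, 10 of the 12 maternal CpGs passed, with estimates of 4.73 to 10.5 points (adjusted p in limma between 0.00651 and 0.0272), against 14.4% of all CpG-alleles. That fit kept the library of mouse 5, and no test at 100 calls without it was made. CpG 5 and CpG 10 were the maternal CpGs that did not. Other settings moved the other way: at a minimum of 20 calls, which let in mouse 7 in prefrontal cortex and mouse 8 in lung, limma called 0, with 2 at an unadjusted p below 0.05 and a lowest adjusted p of 0.622. On the logit scale it called 0 as well, with 10 at an unadjusted p below 0.05 and a lowest adjusted p of 0.311. Depth moved with the tissue: the median over libraries was 556 maternal calls per CpG in prefrontal cortex, and no lung library held more than 324. The part of depth in the difference was not tested.

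In the other areas the difference from lung was smaller. limma called 0 of 24 Plagl1 CpG-alleles in cerebellum, hippocampus, hypothalamus and nucleus accumbens, where 9.42%, 8.88%, 15.2% and 21.1% of all CpG-alleles passed, so Plagl1 lay below the share of the table in each. edgeR called 0 as well. At an unadjusted p below 0.05 limma had 0 in cerebellum and hypothalamus, 2 in hippocampus and 3 in nucleus accumbens, all maternal and higher in the brain area. The share of the table with such a p was 16.6% and 22.9% in the first pair of areas and 20.1% and 29.6% in the second. Maternal CpG 3 in hippocampus (3.95 ± 1.15 points, SE, limma adjusted p = 0.0594) and CpG 11 in nucleus accumbens (2.54 ± 0.874 points, limma adjusted p = 0.0587) missed the threshold narrowly. Both passed with the mouse as a block (limma adjusted p of 0.0493 and 0.0415), where 9.35% and 22.4% of all CpG-alleles were called. At 100 calls the same pair passed (3.95 and 2.97 points, limma adjusted p of 0.0365 and 0.0489), against 12.7% and 17% of all. Neither area had a call at 20 calls, on the logit scale or in edgeR. The lowest Plagl1 adjusted p in hippocampus and nucleus accumbens was 0.268 and 0.315 at 20 calls in limma, 0.232 and 0.166 on the logit scale in limma, and 0.163 and 0.158 in edgeR. When 1 mouse was left out, limma called at most 1 Plagl1 CpG-allele in these areas, each maternal. It was CpG 3 in hippocampus without mouse 2 (8.29% of all called) or mouse 8 (11.2%), CpG 3 in nucleus accumbens without mouse 4 (16.1%) and CpG 6 in cerebellum without mouse 7 (11.2%). In prefrontal cortex, leaving out mouse 5 altogether gave maternal CpGs 2, 3 and 8 (10.3%). By level the maternal differences were 1.28 points in cerebellum, 1.88 in hippocampus, 0.196 in hypothalamus and 1.70 in nucleus accumbens, against the mice's own lung (exact sign-flip adjusted p of 0.781, 0.469, 0.990 and 0.531). On the paternal allele the largest estimates were those of prefrontal cortex, at CpG 5 (10.8 ± 8.73 points) and CpG 1 (10.8 ± 8.58 points, limma adjusted p = 0.645 for both). The paternal level difference there, 9.54 points, turned to -0.437 points without the library of mouse 5.

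**Figure D4:**
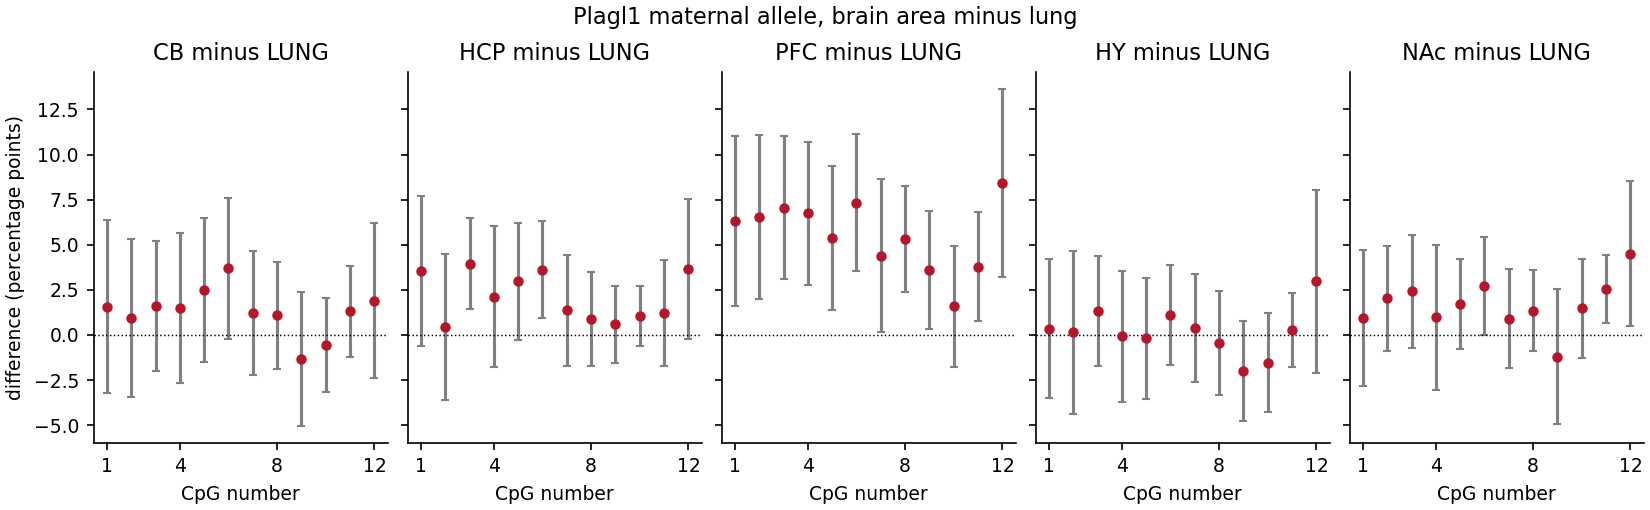
Estimated difference in maternal Plagl1 methylation between each brain area and lung (percentage points), by CpG number, with 95% intervals from limma on all libraries, not paired by mouse. The 12 estimates in prefrontal cortex lie between 1.58 and 8.41 points, and no CpG passed adjustment in any area.

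Compared with other imprinted regions read in the same libraries, the alleles of Plagl1 stood further apart than those of H13 and Gnas. H13 carries the imprinted retrogene Mcts2 within it, Gnas encodes a stimulatory G protein subunit, and Commd1 carries imprinted Zrsr1 in an intron. The maternal minus paternal difference, averaged per mouse over shared libraries, was 86.5 ± 4.07 points at Plagl1, 76.3 ± 4.38 at H13 and 68.8 ± 6.28 at Gnas (SD, n = 7 mice). Plagl1 was wider by 10.2 ± 1.65 points than H13 and by 17.8 ± 4.81 points than Gnas, in 7 of 7 mice and 40 of 40 libraries each (exact sign-flip test, p adjusted over 3 regions = 0.0234). Without the prefrontal cortex library of mouse 5 the differences were 87.7 ± 1.59 points at Plagl1, 77.8 ± 2.75 at H13 and 70.6 ± 3.96 at Gnas, so that library widened each SD by more than 1.5 times. The margins were then 9.91 and 17.1 points, in 7 of 7 mice and 39 of 39 libraries each, with the same adjusted exact p. Without the first and last CpG of each region the margin over H13 was 5.51 points, with the same adjusted exact p. Against Commd1 the margin was 1.86 ± 3.57 points (4 of 7 mice, 22 of 36 libraries, exact sign-flip adjusted p = 0.234), so these regions were not told apart. Relative to Commd1, mice 3, 4 and 5 had a wider Plagl1 difference by 5.48, 6.92 and 4.16 points, and the others lay between -1.72 and 0.159 points.

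**Figure D5:**
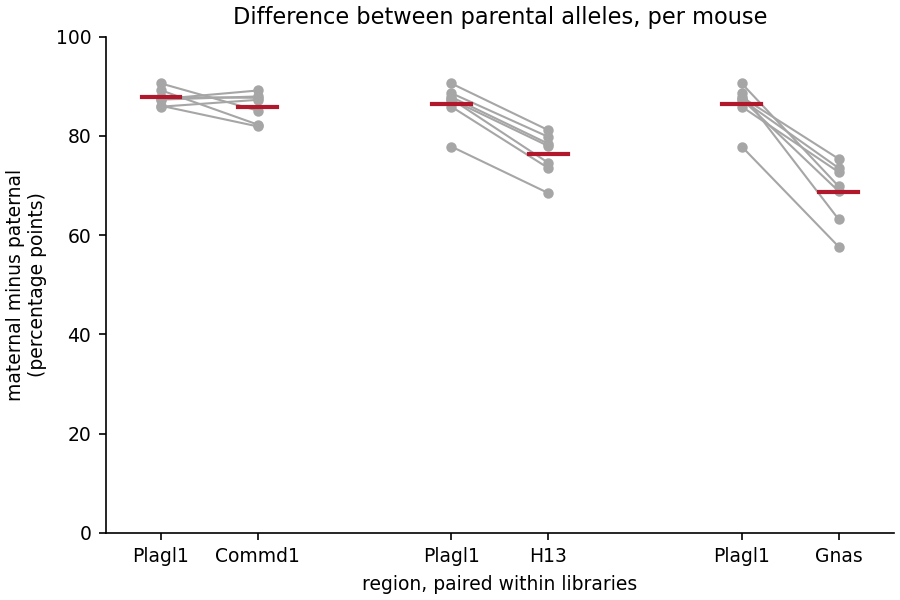
Maternal minus paternal methylation (percentage points) per mouse at Plagl1 and, from the same libraries, at Commd1, H13 and Gnas. Grey lines join the values of 1 mouse and red bars are means over 7 mice; each line falls from Plagl1 to H13 and to Gnas.

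The reads of Plagl1 were divided unevenly between the alleles. The paternal share of calls was 55.1, 54.2, 56.5, 52.6, 51.5, 51.2 and 53.9% in mice 1 to 7, each averaged over tissues, and so above 50% in 7 of 7 mice and in 31 of 40 libraries. The mean was 53.6% ± 1.93 (exact sign-flip p = 0.0156 against 50%, the smallest possible for 7 mice; adjusted for neither the 4 regions nor the choice, which was made after the data were seen). The share was 54.4% with a BL6 mother (n = 3) and 53.0% with a CAST mother (n = 4), so the allele with more reads was the paternal one in either cross. The same share was 43.9% at Commd1, 53.3% at H13 and 51.6% at Gnas (n = 8 mice each).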

How the data were processed

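Bisulfite amplicons of 6 tissues of 8 mice were analysed from the authors' table. Its deposited percent values give the methylated share of the calls that reads of 1 genome made at a CpG, and its deposited coverage columns give the count of those calls. Their product was a whole number within 0.001. The tools were Bismark 0.14.4 (build GRCm38), Trim Galore 0.6.6 and bcl2fastq 2.20, per the submitters' processing notes. The allele-splitting tool is not given in the sources used here, nor are read filters, and the labels mention no molecular identifiers, so PCR copies may be counted. Primer pairs were amplified apart and pooled before barcoding, per the labels' protocols. The 24 samples of lane 7950 were not used here.

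CpG-alleles under 50 calls were left out, and a level is the mean over the CpGs of the region. Levels were compared with exact sign-flip tests within mice and exact permutation tests between mice, two-sided. Single CpGs were fitted with limma 3.58.1 (R 4.3.3) on percent over all CpG-alleles of the table, with Benjamini-Hochberg adjustment and a threshold of 0.05. A test needed 2 mice per age or cross, or 3 per tissue. The limma script was tested on simulated data. Alternatives were minimums of 20 and 100 calls, pooled calls, no first and last CpG, the logit scale, edgeR 4.0.16 on calls, no covariate, the mouse as a block, and leaving out each mouse or the prefrontal cortex library of mouse 5. Tissues with the same mouse number come from 1 animal, per the labels. The level tests against lung were paired within mice. The main limma fits of a brain area against lung were not, and took the libraries of a mouse as independent. Between tissues, the deviations of the same mouse had a median correlation of -0.207 (maternal) and 0.155 (paternal) over 15 tissue pairs. Single pairs, of 5 to 7 mice each, ran from -0.899 to 0.616 (maternal) and from -0.664 to 0.848 (paternal). The prefrontal cortex library of mouse 5 is included, and no correlation without it is given.

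The plan was for 13 CpGs. CpG 13 never reached 50 calls, so 12 entered, and the last CpG in the alternative is CpG 12. CpGs named are those past the threshold in a comparison, otherwise the 2 with the largest difference, plus the highest and lowest of each allele; those named for an unadjusted p or an alternative were chosen after their values were seen. Members, regions and alternatives were chosen with earlier results of these data known.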

Additional observations from a re-analysis of the deposited data

Results flagged for a closer look

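CpG 13, left out for depth, gave calls unlike its neighbours. Pooled over libraries it was methylated in 61.5% of 226 maternal calls (Wilson 95% interval 55.0 to 67.6) and in 58.8% of 228 paternal calls (52.3 to 65.0), so the intervals of the alleles overlap. It lies 44 bases beyond CpG 12, which had 90.9% and 6.38% when pooled in the same way. As means of 7 mice without the prefrontal cortex library of mouse 5, CpG 12 had 89.4% and 2.54%. No library held more than 23 calls on either allele.

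Young mouse 8, below the minimum in each tissue, carried methylation on the paternal allele in 29.1% of its pooled calls and on the maternal allele in 47.8%, over 99 paternal and 83 maternal reads of 6 tissues. Paternal values ran from 6.77% in hippocampus (16 calls per CpG) to 75.0% in nucleus accumbens (8 calls), and maternal values from 18.2% in cerebellum (11 calls) to 69.7% in hippocampus (9 or 10 calls). The maternal value was the lower one in cerebellum and nucleus accumbens. Calls of 1 read are not independent, so no interval is given.

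A single mouse far from the others was searched for in 12 groups of 4 old mice, which are the levels of both alleles in 5 tissues and the mouse means of both alleles, and 0 had one. The groups of 3 or fewer mice, old hippocampus and all young groups, were too small for this search.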

How the results depend on the processing

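The maternal level exceeded the paternal in each tissue under all 13 alternatives. Where 5 mice were left, the exact p was 0.0625, the smallest possible: at 100 calls in prefrontal cortex (80.8 points) and nucleus accumbens (88.6), in prefrontal cortex without the library of mouse 5 (91.2), and with 1 mouse left out in hippocampus (88.7 to 89.7) and prefrontal cortex (79.7 to 91.2). Of 44 other level differences, none passed under any alternative (lowest adjusted p 0.208), and 22 changed sign under at least 1. With these numbers of mice and 10 or 12 tests, a single difference could not pass at any size. Outside paternal prefrontal cortex the largest of those was 1.03 points. Without mouse 5 the cross difference of paternal prefrontal cortex was 1.49 points and its difference from lung -0.437 points; with 1 mouse left out these ran from -19.0 to 1.49 and from -0.437 to 12.0 points. For age at single CpGs the replicate block called 12 in prefrontal cortex, and other settings with a test called 0. In prefrontal cortex no age test was made at 100 calls, or without mouse 5, its library or mouse 6. For brain against lung, 100 calls gave 1 CpG-allele in hippocampus, 10 in prefrontal cortex and 1 in nucleus accumbens, dropping the library of mouse 5 gave 3 in prefrontal cortex, and the replicate block gave 1 in hippocampus and 1 in nucleus accumbens. Leaving out 1 mouse gave 0 to 1 in cerebellum (without mouse 7), hippocampus (2 or 8) and nucleus accumbens (4), and 0 to 3 in prefrontal cortex (5). Beyond fewer samples the causes were not tested. The block changed no other call. In the CpG profile 11 CpG-alleles passed at 20 calls and 10 at 100 calls. Leaving out 1 mouse gave 0 to 9: 0 in each fit left with 6 mice, where the 9 had adjusted p of 0.0682 to 0.0833 and kept their directions, and 9 without mouse 8, which has no value. Depth limits what can be seen: 53 to 1094 maternal calls per CpG, and none at the minimum in mouse 8.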
